A study of Saccharomyces cerevisiae with 4 samples.

Results

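The 42 genes described here encode ATP-dependent chromatin remodelers and histone chaperones of budding yeast: 12 genes of the RSC complex, 3 genes shared by RSC and SWI/SNF, 9 of SWI/SNF, 7 of the ISWI and CHD1 enzymes, the catalytic genes INO80 and SWR1, and 9 genes of chaperones for histones H3 and H4. They were chosen by name, with the genes of the FACT chaperone left out, from 6418 annotated genes on the R64 genome, and all 42 were found there. Acetylation of lysine 16 of histone H4 (H4K16ac) was measured by ChIP-seq, in which cross-linked chromatin is recovered with an antibody and its DNA is sequenced. Cells labelled nhp6ab were compared with wild-type (WT) cells, all growing exponentially in YPD, a rich glucose medium, and the labels name 2 libraries for each genotype. The label nhp6ab refers to NHP6A and NHP6B, paralogous genes of small DNA-bending proteins that work with FACT. The labels give neither the strain background nor the structure of the alleles.

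Remodelers use ATP to slide, evict or exchange nucleosomes, and chaperones hand histones to and from DNA during transcription and replication. RSC and SWI/SNF clear promoters, ISWI and Chd1 space nucleosomes into arrays, SWR1 exchanges H2A for the variant H2A.Z, and INO80 acts on nucleosome position and on H2A.Z. Acetylated H4K16 is abundant in active yeast chromatin and is known to hinder the compaction of nucleosome arrays and, in flies, ISWI activity. The genes below are themselves transcribed units, so the values describe the chromatin over the genes and not the activity of the proteins they encode.

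Each table gives a single read count per nucleosome for both libraries of a genotype. Replicate spread could therefore not be estimated, and no test between genotypes was possible. Intervals are exact binomial 95% intervals and cover counting error only. There were 20293261 counts over 57674 nucleosomes in nhp6ab, and 26526939 counts over 60557 nucleosomes in WT. Counts were scaled to CPM, each count as a share of its table total on the usual per-million scale, and the median nucleosome had 17.4 CPM in nhp6ab and 16.7 CPM in WT. Absence from a list does not equal a count of 0, since the signal there is unknown. Over the NHP6A open reading frame (ORF) there were 260 counts in nhp6ab and 592 counts in WT, and the nhp6ab count was 57.4% of that expected from the table totals. Over NHP6B the counts were 564 in nhp6ab and 882 in WT, or 83.6% of that expectation. Both genes thus still had reads in the table labelled nhp6ab, and every direction below is that of the tables as labelled.

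For each gene, counts were summed over a window that runs from 500 bp before the ORF start to the ORF end, by nucleosome midpoint. These windows held 616 nucleosomes and 211492 counts in nhp6ab, against 680 nucleosomes and 291244 counts in WT, and covered 86.3 kb and 96.2 kb in the same order. The typical 95% interval of a member's log2 ratio reached 0.05 to either side. ORFs ranged from 237 bp for HTL1 to 5112 bp for SNF2.

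The median log2 ratio of nhp6ab over WT was −0.07 for the 42 genes, with an interquartile range of −0.24 to 0.08, and −0.02 for the 6134 genes with at least 100 counts over both tables. The limit for a call was a log2 ratio past 0.3 in either direction, or 1.23-fold, with an interval that excluded 0. By this rule 2 members were higher, SFH1 and RSC58, where 9.46% of all measured genes were. Lower were 7 members, SNF11, SNF6, HIR1, STH1, SPT6, SWR1 and ITC1, where 12.5% of all measured genes were. With 2 and 7 of 42, the members lay below the first of these backgrounds and near the second. Past 0.5, 0 members were higher and 2 lower, SNF11 and SNF6, where 3.75% and 4.89% of all genes were. Past 1 there were 0 in either direction, where 0.326% of all genes were higher and 1.08% lower. The interval alone lay above 0 for 11 members and below 0 for 22, against 31.1% and 40.3% of all genes, and included 0 for 9. Both higher genes lie on chromosome XII, where the median ratio of all genes was 0.37. With each gene centred on the median of its chromosome, SFH1 and RSC58 were no longer called and HIR2 was the 1 higher member, at 0.33. Lower were then SNF11, SNF6, HIR1 and, newly, IOC2, while STH1, SPT6, SWR1 and ITC1 lost their calls.

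A summed count moves both with the count per nucleosome and with the number of nucleosomes listed, and both were therefore compared. Of the 42 genes, 26 had fewer nucleosomes listed in nhp6ab than in WT, 9 had equal numbers and 7 had more. All 7 of the lower genes were among the 26. The share of all genes with fewer was not counted. In total the members had 9.41% fewer nucleosomes listed in nhp6ab, where all measured protein-coding genes had 4.21% fewer. By the mean count per listed nucleosome, 38 of the 42 genes lay within 0.3 of 0, with a median of 0.04, against 0.03 for all genes. Of the rest, 3 were higher and 1 lower, where 9.9% of all genes were higher and 5.41% lower by this measure. The higher were SFH1, IOC2 and RSC58, all on chromosome XII, where the median of all genes by this measure was 0.44. The lower was SNF11. Nucleosomes matched between the tables by midpoints within 50 bp were compared as well. The 557 matched nucleosomes of the members had a median log2 ratio of 0.02 and those of all measured protein-coding genes 0.04.

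**Figure D1:**
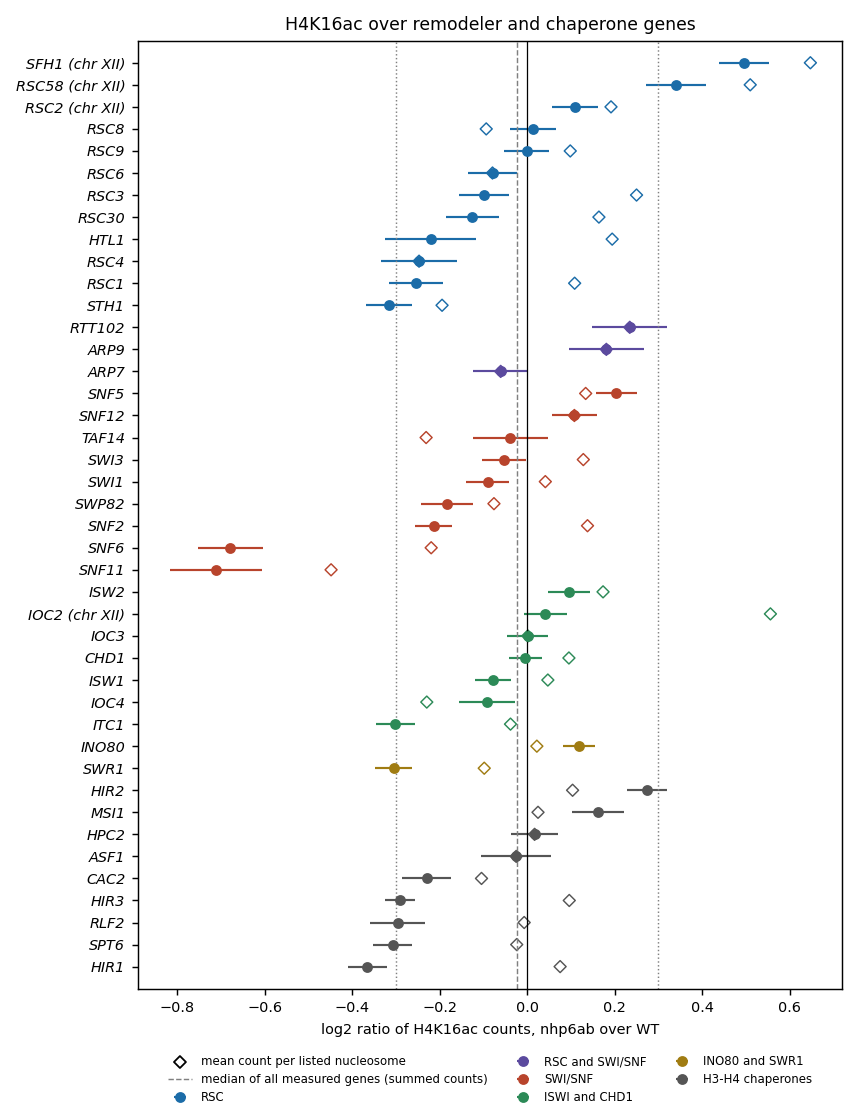
Log2 ratio of H4K16ac counts, nhp6ab over WT, for each of the 42 genes by complex. Filled points are summed counts with their 95% counting interval, open diamonds are the mean count per listed nucleosome, dotted lines mark the limits at 0.3 and the dashed line the median of all measured genes; SNF11 and SNF6 lie lowest at −0.71 and −0.68, and SFH1 highest at 0.50.

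The level of the mark, read here from ChIP counts alone, varied widely among the genes. The labels name no library of chromatin without the antibody. Acetylation therefore cannot be told apart from the amount of nucleosomes, between genes or between genotypes. As CPM per kb of window, the level ranged from 37.5 to 139 in nhp6ab and from 44.5 to 132 in WT. The members' median was 84.5 in nhp6ab and 93.5 in WT, against 92.1 in nhp6ab and 93.7 in WT for all measured genes, and 19 members lay above the median in nhp6ab and 21 in WT. RSC4, whose protein reads acetylated histones with tandem bromodomains, had the lowest level in both tables, 37.5 CPM per kb in nhp6ab and 44.5 in WT. ARP9 followed in WT with 50.8 CPM per kb in nhp6ab and 44.8 in WT, a ratio short of the limit. CPM per kb also falls where less of a window is listed. Listed nucleosomes covered 43.2% of the RSC4 window in nhp6ab and 52.1% in WT, and 54.1% and 52.5% of the ARP9 window. Per listed nucleosome RSC4 had 11.1 CPM in nhp6ab and 13.2 in WT, and STH1 was lower, with 10.1 and 11.5. Highest in nhp6ab was SFH1 with 139 CPM per kb, against 98.4 in WT, where it ranked 15. Highest in WT was HIR1 with 102 CPM per kb in nhp6ab and 132 in WT, and it ranked 15 in nhp6ab.

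**Figure D2:**
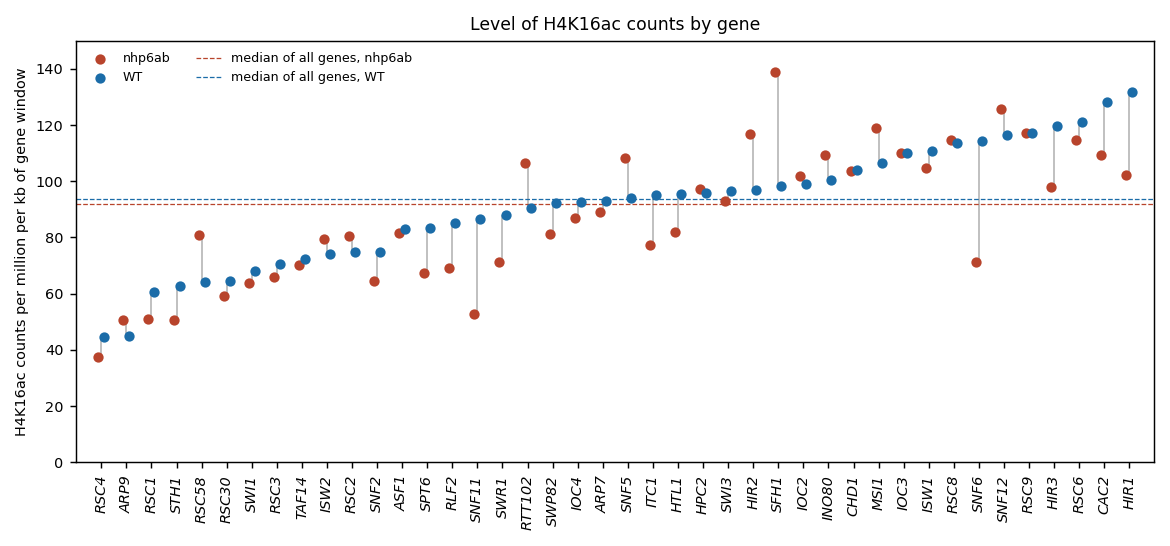
H4K16ac level as CPM per kb of window (linear axis from 0) for each gene in nhp6ab and WT, ordered by the WT level. Grey lines join the values of a gene, dashed lines are the medians of all measured genes, and the level runs from RSC4 to HIR1; SFH1, SNF6 and SNF11 show long joining lines.

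RSC is an essential and abundant remodeler of yeast, and its 12 genes had a median log2 ratio of −0.09 (range −0.31 to 0.50). STH1 (YIL126W, chromosome IX, 117992 to 122071), which encodes the RSC ATPase, had 4700 counts over 23 nucleosomes in nhp6ab and 7642 over 25 in WT. Its log2 ratio was −0.31 (95% interval −0.37 to −0.26), and −0.19 by the mean per nucleosome. STH1 was thus lower by both measures, and its matched nucleosomes had a median of −0.17. Averaged over the window, the level of STH1 was low, at 10.1 CPM per nucleosome in nhp6ab and 11.5 in WT. Among matched nucleosomes with the WT midpoint inside a window, the lowest ratio of all 42 genes was in STH1, −1.05, with 3.79 CPM at 646 bp in nhp6ab against 7.84 CPM at 620 bp in WT.

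SFH1 (YLR321C, chromosome XII, 776584 to 777864), the RSC counterpart of Snf5, had 5014 counts over 9 nucleosomes in nhp6ab and 4649 over 10 in WT. Its ratio of 0.50 (0.44 to 0.55) was the highest of the 42 genes. All 9 matched nucleosomes were higher in nhp6ab, by 0.40 to 0.84 with a median of 0.66. Their positions were nearly the same in both tables: the first nucleosome of the ORF lay 31 bp past the start in nhp6ab with 23.9 CPM and 30 bp past it in WT with 18.2 CPM. After subtraction of the median of chromosome XII, 0.12 of the ratio remained.

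RSC58 (YLR033W, chromosome XII, 208761 to 210269), an essential RSC subunit gene, had 3303 counts over 8 nucleosomes in nhp6ab and 3411 over 9 in WT, a ratio of 0.34 (0.27 to 0.41). Its 8 matched nucleosomes were all higher, by 0.26 to 0.68. Centred on its chromosome, RSC58 stood at −0.03. RSC2, on the same chromosome, had 5187 counts in nhp6ab and 6286 in WT, a ratio of 0.11, or −0.26 after centring. RSC1 and RSC2 are paralogs with bromodomains that define alternative forms of RSC. RSC1 (chromosome VII) had 3391 counts over 14 nucleosomes in nhp6ab and 5286 over 18 in WT, which gave −0.25 (−0.32 to −0.19) for the sum and 0.11 per nucleosome. The levels of both were below the genome's median, at 50.8 in nhp6ab and 60.6 in WT for RSC1 and 80.6 in nhp6ab and 74.8 in WT for RSC2, in CPM per kb.

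RSC4 (YKR008W, chromosome XI, 452201 to 454078) had 1808 counts in nhp6ab and 2805 in WT over 8 nucleosomes in each, a ratio of −0.25 (−0.33 to −0.16). Of 6 matched nucleosomes the median was −0.28. Its nucleosome nearest the ORF start had its midpoint 10 bp before the start in nhp6ab with 16.7 CPM and 10 bp after it in WT with 21.7 CPM. This small difference in position placed it upstream in 1 table and in the ORF in the other, which gave a ratio of 0.67 upstream and −0.62 over the ORF. With matched nucleosomes placed by their shared midpoint, the upstream ratio of RSC4 was −0.30.

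RSC3 and RSC30 encode paralogous zinc cluster proteins of RSC that bind DNA. RSC3 had 4224 counts over 11 nucleosomes in nhp6ab and 5909 over 14 in WT, a ratio of −0.10, and RSC30 had 3780 over 9 in nhp6ab and 5390 over 11 in WT, a ratio of −0.13. By the mean per nucleosome both were above 0, at 0.25 and 0.16. The ORF of RSC30 was sparsely listed, with 5 nucleosomes covering 28.0% of it in nhp6ab and 7 covering 38.5% in WT, and RSC3 had 48.4% of its ORF covered in nhp6ab and 56.3% in WT. RSC6, RSC8 and RSC9, structural subunits, had levels of 115 to 117 CPM per kb in nhp6ab and 114 to 121 in WT. Their ratios were −0.08, 0.01 and −0.00. The small HTL1 gene rested on 3 nucleosomes with 1227 counts in nhp6ab and 4 with 1869 in WT, which gave −0.22 for the sum and 0.19 per nucleosome.

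ARP7 and ARP9, actin-related proteins that form a module on the ATPases of RSC and SWI/SNF, and RTT102, a small protein bound to them, are shared by both complexes. RTT102 had 2108 counts in nhp6ab and 2342 in WT over 5 matched nucleosomes, all higher in nhp6ab, and a ratio of 0.23 (0.15 to 0.32). It had the highest median of matched nucleosomes outside chromosome XII, 0.30. ARP9 stood at 0.18 (0.09 to 0.27) from 2052 counts in nhp6ab and 2366 in WT over 7 nucleosomes in each. ARP7 stood at −0.06 (−0.12 to 0.00) with 3497 counts in nhp6ab and 4767 in WT.

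SWI/SNF, known for its part at inducible promoters, held the lowest genes of the set. Its 9 genes had a median log2 ratio of −0.09 (range −0.71 to 0.20). SNF11 (YDR073W, chromosome IV, 592439 to 592948), which encodes a small subunit that binds Snf2, had 1084 counts over 5 nucleosomes in nhp6ab and 2320 over 6 in WT. The ratio was −0.71 (−0.82 to −0.61), at percentile 2.33 of measured genes, and −0.45 by the mean per nucleosome. In nhp6ab, upstream nucleosomes were listed at 487 bp with 1.63 CPM, 320 bp with 2.41 CPM and 70 bp with 14.2 CPM before the ORF start. In WT they were listed at 390 bp with 5.35 CPM, 246 bp with 8.93 CPM and 87 bp with 15.5 CPM. The 2 far upstream nucleosomes of SNF11 were the lowest of any in the windows of the 42 genes in nhp6ab. The one at 487 bp was matched to a WT nucleosome at 509 bp with 4.15 CPM, just outside the window, a ratio of −1.35. Inside the ORF, a WT nucleosome at 14 bp with 16.4 CPM had no counterpart in nhp6ab, while those at 141 and 440 bp in nhp6ab, with 16.9 and 18.3 CPM, matched those at 135 and 435 bp in WT, with 20.4 and 20.9 CPM.

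SNF6 (YHL025W, chromosome VIII, 54851 to 55849), another SWI/SNF subunit gene, had 2170 counts over 8 nucleosomes in nhp6ab and 4541 over 11 in WT, which gave −0.68 (−0.75 to −0.60) for the sum and −0.22 per nucleosome. Upstream, a single nucleosome was listed in nhp6ab, 250 bp before the start with 11.3 CPM. The WT table listed 3 there, at 460 bp with 13.7 CPM, 285 bp with 16.9 CPM and 190 bp with 14.9 CPM. The upstream ratio of −2.01 (−2.22 to −1.81) was the lowest of the genes measured there, and −0.43 by the mean. Over the ORF the ratio was −0.39, and of all 8 matched nucleosomes the median was −0.27. SNF6 and SNF11 were therefore lower by the sum, by the mean and by the matched nucleosomes. Without nucleosomes that overlap a neighbour by at least 20 bp, however, SNF6 turned to 1.62 over the window, and SNF11 stood at −0.10 and was no longer called.

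SNF2 (YOR290C, chromosome XV, 855147 to 860258), the SWI/SNF ATPase gene and the longest ORF of the set, had 7363 counts over 29 nucleosomes in nhp6ab and 11160 over 37 in WT. The sum gave −0.21 (−0.26 to −0.17), the mean per nucleosome 0.14 and 25 matched nucleosomes a median of 0.03. Of its WT nucleosomes 12 had no counterpart within 50 bp, the most of any member. Its level was 64.7 CPM per kb in nhp6ab and 74.97 in WT, beside that of its RSC homolog STH1, with 50.6 in nhp6ab and 62.9 in WT. SNF5 was the highest SWI/SNF gene by the sum at 0.20 (0.16 to 0.25), with 7082 counts in nhp6ab and 8036 in WT. By the mean SNF5 was at 0.13, just below SNF2, and without overlapping nucleosomes it stood at −0.57. SNF12 stood at 0.11, SWI3 at −0.05, SWI1 at −0.09 and SWP82 at −0.18, and TAF14, whose protein is shared with INO80, TFIID and TFIIF, at −0.04. SNF12 had the highest level of the group, with 126 CPM per kb in nhp6ab and 117 in WT.

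Of the 7 ISWI and CHD1 genes, 6 lay within the limit, and their median was −0.00. CHD1 (YER164W, chromosome V, 505392 to 509798) had 10339 counts over 28 nucleosomes in nhp6ab and 13553 over 30 in WT, a ratio of −0.00 (−0.04 to 0.03). ISW1 (YBR245C, chromosome II, 708150 to 711539) had 8271 over 22 in nhp6ab and 11414 over 24 in WT, a ratio of −0.08 (−0.12 to −0.04). ISW2 (YOR304W, chromosome XV, 884514 to 887876) had 6216 over 18 in nhp6ab and 7605 over 19 in WT, a ratio of 0.10 (0.05 to 0.14). For these 3 ATPase genes the median of matched nucleosomes was 0.08, −0.00 and 0.19. ITC1, the gene of the partner of Isw2, was the lowest of this group at −0.30 (−0.35 to −0.26), with 6736 counts over 20 nucleosomes in nhp6ab and 10849 over 24 in WT. By the mean ITC1 was at −0.04, and 7 of its WT nucleosomes had no counterpart. Without overlapping nucleosomes ITC1 stood at 0.08.

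The partners of Isw1 are Ioc3 in one complex and Ioc2 and Ioc4 in the other. IOC3 stood at 0.00, with 16 nucleosomes in each table and 6400 counts in nhp6ab and 8357 in WT, and IOC4 at −0.09. IOC2, on chromosome XII, had 6069 counts over 14 nucleosomes in nhp6ab and 7708 over 20 in WT. The sum gave 0.04 and the mean 0.56, and all 13 of its matched nucleosomes were higher in nhp6ab, by 0.23 to 0.84. Centred on its chromosome, the summed ratio of IOC2 was −0.33, past the limit in the other direction. For IOC2, a higher count per nucleosome thus went with fewer nucleosomes in nhp6ab.

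INO80 (YGL150C, chromosome VII, 221104 to 225573) had 11014 counts over 31 nucleosomes in nhp6ab and 13263 over 29 in WT, a ratio of 0.12 (0.08 to 0.16). SWR1 (YDR334W, chromosome IV, 1135932 to 1140476) had 7301 over 26 in nhp6ab and 11787 over 30 in WT, a ratio of −0.30 (−0.35 to −0.26). By the mean these were 0.02 and −0.10, and the matched nucleosomes of SWR1 had a median of −0.19. Without overlapping nucleosomes the ratio of SWR1 turned to 0.44 and that of INO80 to −0.31. Both ORFs span about the same length, and their levels were 109 CPM per kb in nhp6ab and 101 in WT for INO80, and 71.3 in nhp6ab and 88.1 in WT for SWR1.

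The 9 chaperone genes had the lowest median of the groups with more than 2 genes, −0.23 (range −0.37 to 0.27), but 0.02 by the mean per listed nucleosome. That median was the value of CAC2, which stood at −0.10 with matched nucleosomes placed by their shared midpoint. The size of the group's median thus depends on a nucleosome at the window border. By that placement CAC2 was still the middle gene, and the group's median was still the lowest of these groups, close to those of RSC and SWI/SNF. HIR1 (YBL008W, chromosome II, 209653 to 212175), a subunit gene of the HIR complex that deposits H3 and H4 outside replication and represses histone genes, had 6270 counts over 14 nucleosomes in nhp6ab and 10557 over 19 in WT. Its ratio was −0.37 (−0.41 to −0.32), the lowest of the chaperones, and 0.08 by the mean. In nhp6ab no nucleosome was listed within 500 bp upstream. In WT 3 were listed there, 455 bp before the start with 19.6 CPM, 232 bp with 19.5 CPM and 22 bp with 24.2 CPM, none with a counterpart within 50 bp. The next nucleosome in nhp6ab, 39 bp into the ORF with 18.3 CPM, likewise had no counterpart. The 12 matched nucleosomes of HIR1 had a median of −0.02, with 29.0 CPM at 154 bp in nhp6ab and 30.5 CPM at 153 bp in WT, and over the ORF the ratio was −0.12.

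HIR3 (YJR140C, chromosome X, 690750 to 695696) had 10816 counts over 26 nucleosomes in nhp6ab and 17295 over 34 in WT, a ratio of −0.29 (−0.33 to −0.26), short of the limit. Of its WT nucleosomes 10 had no counterpart, all more than 1000 bp into the ORF, and 24 matched nucleosomes had a median of −0.07. Around the HIR3 start the level was high in both tables, with 32.0 CPM at 12 bp upstream in nhp6ab and 29.3 CPM at 22 bp upstream in WT. HIR2 was the highest chaperone gene at 0.27 (0.23 to 0.32), with 7423 counts over 18 nucleosomes in nhp6ab and 8026 over 16 in WT. HPC2 stood at 0.02. By the summed ratio, the genes of the HIR complex therefore lay at both ends of the chaperone group. By the mean per nucleosome they lay close together, HIR1 at 0.08, HIR2 and HIR3 at 0.10 each and HPC2 at 0.02. Without overlapping nucleosomes HIR1 stood at −0.65, HIR2 at 0.04, HIR3 at 0.25 and HPC2 at 0.44.

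SPT6 (YGR116W, chromosome VII, 720409 to 724764), the chaperone that travels with RNA polymerase II, had 6645 counts over 23 nucleosomes in nhp6ab and 10751 over 28 in WT. Its ratio was −0.31 (−0.35 to −0.26), and −0.02 by the mean. The ORF was covered by listed nucleosomes over 62.3% of its length in nhp6ab and 79.8% in WT. ASF1 (YJL115W, chromosome X, 196287 to 197126), which hands H3 and H4 to CAF-1 and HIR, had an interval that included 0: 2218 counts in nhp6ab and 2950 in WT over 8 nucleosomes each gave −0.02 (−0.11 to 0.05).

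CAF-1 assembles nucleosomes behind replication forks from the products of RLF2, CAC2 and MSI1. RLF2 had 3265 counts over 9 nucleosomes in nhp6ab and 5241 over 11 in WT, a ratio of −0.296 (−0.36 to −0.23), short of the limit and so not called. The pair of WT nucleosomes without a counterpart in RLF2 lay at 262 and 418 bp of the ORF, with 17.5 and 19.2 CPM, where nhp6ab listed none between 112 and 986 bp. CAC2 had 4225 counts over 11 nucleosomes in nhp6ab and 6477 over 12 in WT, a ratio of −0.23. MSI1 stood at 0.16 (0.10 to 0.22) with 4272 counts in nhp6ab and 4990 in WT.

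Upstream sequence, where remodelers act on the nucleosomes around the start of transcription, was summed apart. Of the 42 genes, 38 were measured there, with a median log2 ratio of −0.02, against −0.09 for 5697 genes. ARP9 had no nucleosome listed upstream in either table, and HIR1, ITC1 and SWR1 had none in nhp6ab and 3, 1 and 1 in WT. HIR1, ITC1 and SWR1, with 1679, 421 and 350 counts there in WT, are thus outside this median and the calls that follow. Higher upstream were 5 members, RSC4, RSC58, SFH1, ISW2 and SWI1, where 15.4% of all genes were. Of these, RSC4 was the border case that stood at −0.30 by shared midpoints. RSC58 and SFH1, on chromosome XII, stood at 0.30 and 0.29 when centred on it, while ISW2 and SWI1 stayed past the limit when centred. ISW2 rested on 1 nucleosome per genotype, with 206 counts in nhp6ab and 199 in WT. It stood at 0.10 with nucleosomes assigned by overlap, and SWI1 at 0.46. Lower were 13 members, where 32% of all genes were, and 13 of 38 is near that background. Past 0.5, 3 were higher and 6 lower, against 8.18% and 22% of all genes. Past 1, 0 were higher and 2 lower, against 2% and 7.74%. The interval lay above 0 for 9 and below 0 for 13, against 24.9% and 43.8%. After SNF6 and CAC2 the lowest were SNF11 at −0.71, STH1 at −0.67, IOC4 at −0.60 and INO80 at −0.59. The others, IOC2, SNF2, HPC2, TAF14, HTL1, RSC6 and RSC3, lay between −0.46 and −0.30. By the mean per nucleosome STH1 was at −0.09 and INO80 at −0.01, each with 2 nucleosomes in nhp6ab and 3 in WT. SNF11 and IOC4 had the same values by the mean. IOC4 rested on 1 nucleosome per genotype, with 144 counts in nhp6ab and 285 in WT. The upstream 500 bp was free of other ORFs for 16 members and lay mostly inside another ORF for 12, so upstream values partly describe the neighbours.

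Some of the upstream ratios depended on the side of a window border on which a nucleosome lay. CAC2 (YML102W, chromosome XIII, 68294 to 69700) had 433 counts upstream in nhp6ab and 1582 in WT, a ratio of −1.48 (−1.64 to −1.33). Its far upstream nucleosome lay 504 bp before the start in nhp6ab with 19.5 CPM, outside the window, and 483 bp before it in WT with 27.0 CPM, inside it. The nearer one lay at 325 bp in nhp6ab with 21.3 CPM and at 308 bp in WT with 32.6 CPM, which was the highest nucleosome of all members in WT. Placed by shared midpoints the upstream ratio of CAC2 was −0.55, so the gene stayed lower but by less. By the same placement INO80 moved to −0.14, IOC2 to −0.08 and HPC2 to 0.54, SWR1 became measurable at 0.31, and SNF6, STH1 and IOC4 had the same values as before. With this placement, chosen after the data were seen, 6 members were higher and 10 of 39 lower, against 13% and 28.6% of all genes. Over the window it left 2 higher and 6 lower, against 8.82% and 12.4%, and over the ORF 2 higher and 5 lower, against 10.8% and 11.7%.

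Over the ORFs alone the median log2 ratio of the 42 genes was −0.03, against 0.01 for 5878 genes. Higher were 2 members, SFH1 at 0.47 and HIR2 at 0.31, where 12.6% of all genes were. Lower were 6, SNF11 at −0.71, RSC4 at −0.62, SNF6 at −0.39, RLF2 at −0.36, SPT6 and HIR3 at −0.35, where 12% were. Past 0.5 the counts were 0 and 2, against 5.32% and 5.41%, and past 1 they were 0 and 0, against 0.544% and 1.17%. The interval lay above 0 for 13 and below 0 for 18, against 37.2% and 33.9%.

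**Figure D3:**
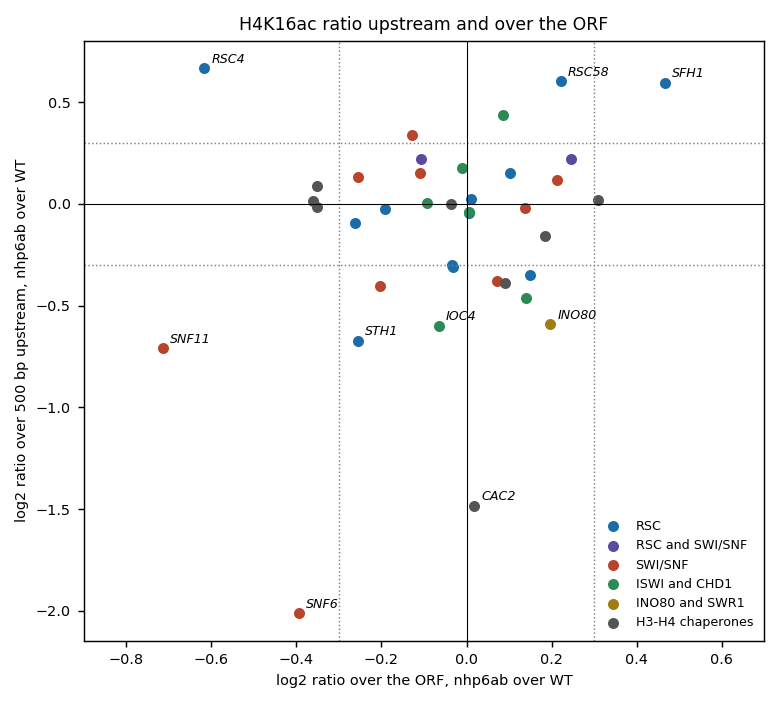
Log2 ratio of H4K16ac counts, nhp6ab over WT, over the ORF (horizontal axis) and over 500 bp upstream (vertical axis) for the 38 genes measured in both. Dotted lines mark 0.3; SNF6 at −2.01 and CAC2 at −1.48 stand lowest upstream, and RSC4 lies apart because a nucleosome at its ORF start falls on different sides of the border in the tables.

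The longest stretch without a listed nucleosome in the 500 bp upstream was measured as the width of the promoter gap. Its median over the 42 genes was 135 bp in nhp6ab and 117.5 bp in WT, against 144 bp and 121 bp for 5791 protein-coding genes in the same order. The gap was at least 100 bp wider in nhp6ab for 4 members, HIR1, STH1, IOC2 and SNF11, where 12.8% of the protein-coding genes had such a difference. It was at least 100 bp narrower for 0 of the 42, where 3.3% were. At HIR1 the gap was 479 bp in nhp6ab and 63 bp in WT. For STH1 it was 194 bp in nhp6ab and 15 bp in WT, because the WT nucleosome 169 bp upstream with 12.2 CPM had no counterpart. IOC2 lacked a counterpart of the WT nucleosome 186 bp upstream with 10.1 CPM, and its gap was 163 bp in nhp6ab and 15 bp in WT. SNF11 had a gap of 121 bp in nhp6ab and 13 bp in WT. In each of these genes the wider gap went with WT nucleosomes that were not listed in nhp6ab, and whether they were absent there or below the caller's limit was not tested.

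**Figure D4:**
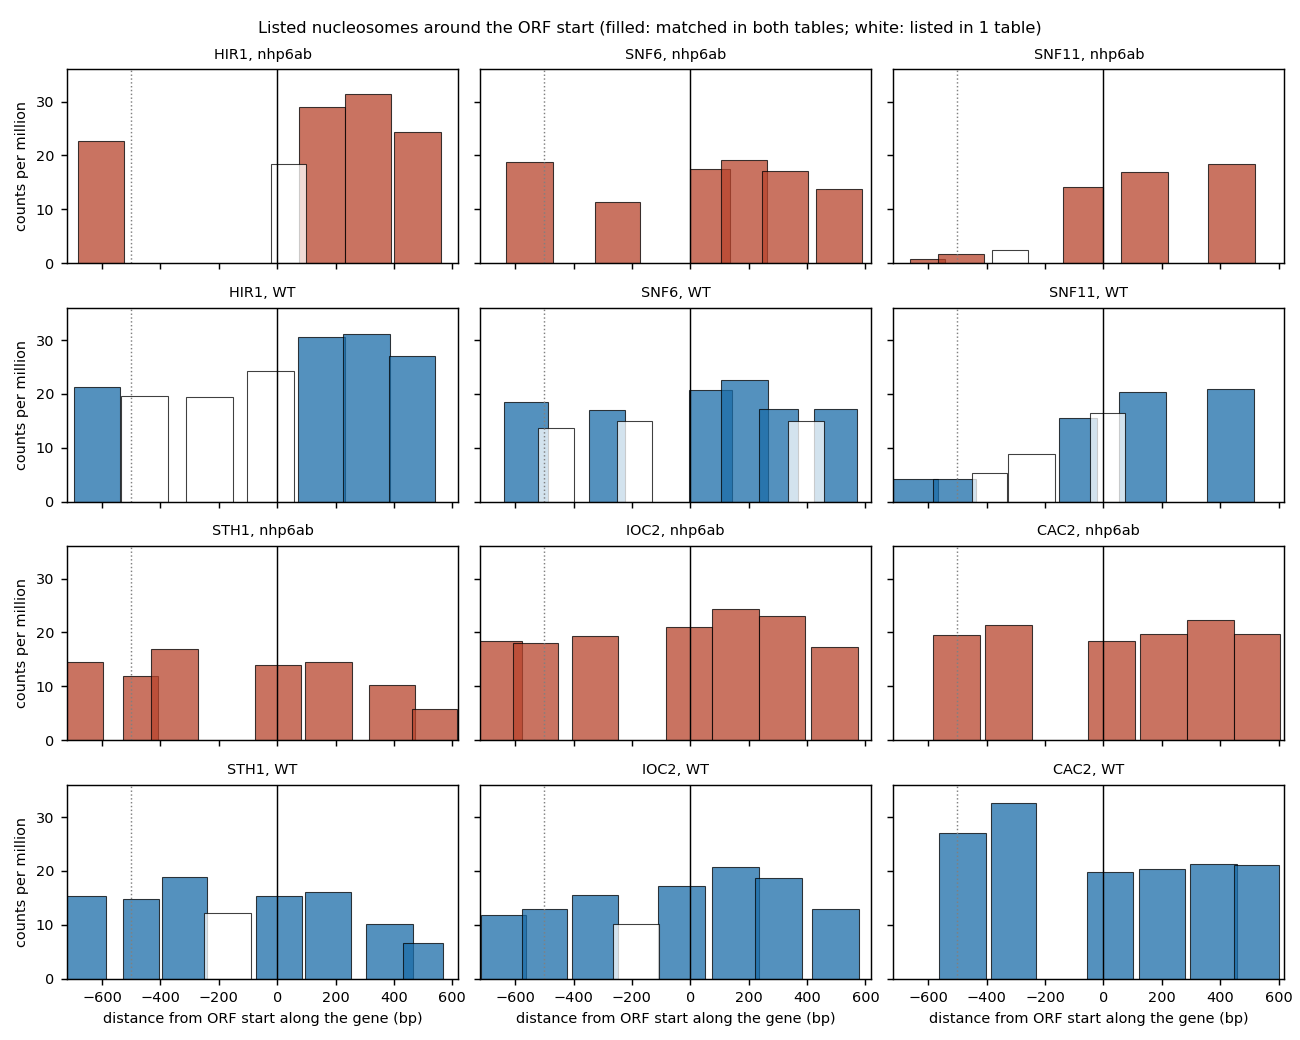
Listed nucleosomes from 700 bp before to 600 bp after the ORF start of 6 genes, nhp6ab above WT for each gene. Bars span each listed nucleosome, their height is CPM, filled bars are matched in both tables, white bars are listed in 1 table, the dotted line marks 500 bp upstream; the 3 white WT bars upstream of HIR1 and the white bars at SNF6 have no counterpart in nhp6ab.

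The midpoint of the first nucleosome inside the ORF lay within 20 bp of the same place in both tables for 28 of the 42 genes, or 66.7%, against 64.5% of the protein-coding genes. The median distance from the ORF start was 64 bp in nhp6ab and 69.5 bp in WT. At SWR1 it lay at 65 bp with 16.9 CPM in nhp6ab and at 72 bp with 21.0 CPM in WT. At ASF1 it lay at 144 bp with 14.2 CPM in nhp6ab and at 137 bp with 13.0 CPM in WT. At STH1 the distances were 3 bp in nhp6ab with 13.9 CPM and 6 bp in WT with 15.4 CPM.

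Along the genes, the difference in listed nucleosomes lay mostly upstream and beyond 1000 bp of the ORFs. Upstream, 78 nucleosomes were listed in nhp6ab and 91 in WT, which is 14.3% fewer, against 6.75% fewer over all measured protein-coding genes. In the first 500 bp of the ORF the numbers were 117 in nhp6ab and 118 in WT. From 500 to 1000 bp they were 112 in nhp6ab and 118 in WT. Beyond 1000 bp they were 309 in nhp6ab and 353 in WT, 12.5% fewer, where all protein-coding genes had 5.88% fewer. The summed ratio followed, at −0.19 upstream, 0.05 and 0.03 in the next classes and −0.13 beyond 1000 bp. The mean per nucleosome was 0.03, 0.06, 0.11 and 0.06 in the same order of position. For the 38 members outside chromosome XII the upstream values were −0.25 for the sum and −0.04 for the mean. All protein-coding genes had summed ratios of −0.13, 0.04, 0.06 and 0.01 in this order of position, and means of −0.03, 0.05, 0.11 and 0.10. The members' upstream sum includes HIR1, ITC1 and SWR1, and at −0.19 it lay below the −0.13 of all protein-coding genes. The upstream median per gene leaves HIR1, ITC1 and SWR1 out and lay the other way, at −0.02 against −0.09 for all genes. Nucleosomes near a window border also enter the sum and the upstream numbers. Placed by shared midpoints, CAC2 moved from −1.48 to −0.55 upstream and INO80 from −0.59 to −0.14. IOC2 and HPC2 also rose, and SWR1 became measurable at 0.31. RSC4 fell from 0.67 to −0.30 and SNF11 from −0.71 to −0.90. Part of the members' distance from all protein-coding genes may thus rest on such nucleosomes, which was not tested. The difference between the members and the other genes was not tested, since the nucleosomes of a gene are not independent.

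Nucleosomes listed in a single table had lower counts and more often overlapped a neighbour than matched ones. In the members' windows, 9.90% of the nhp6ab nucleosomes and 18.1% of the WT nucleosomes had no counterpart, against 11.3% and 15.5% of the whole tables in the same order. In nhp6ab those without a counterpart had a median of 14.5 CPM and the matched ones 16.9 CPM. In WT the values were 13.2 CPM and 16.7 CPM. An overlap of at least 20 bp with a neighbour was found for 57.4% of the unmatched and 29.2% of the matched nucleosomes in nhp6ab, and for 50.4% and 27.5% in WT. The total of WT counts exceeds that of nhp6ab, and the part of depth in what was listed was not tested.

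Matched nucleosomes with an absolute log2 ratio of at least 0.5 were few. Of 557, 24 were higher in nhp6ab and 16 lower, which is 4.31% and 2.87%, where 6.90% and 4.13% of those of all protein-coding genes were. Of the 24 higher ones, 15 lay in the 4 genes on chromosome XII, and 9 in the 38 other genes. Of the 16 lower ones, 1 lay on chromosome XII, in RSC2. Outside chromosome XII the highest were in SWI3, with 24.8 CPM at 6 bp before the ORF in nhp6ab against 15.2 CPM at 54 bp before it in WT, and in CAC2, with 24.8 CPM at 945 bp in nhp6ab against 15.5 CPM at 986 bp in WT. The lowest after STH1 were in SWP82, with 10.3 CPM at 431 bp in nhp6ab against 16.5 CPM at 416 bp in WT, and in SPT6, with 12.3 CPM at 3845 bp in nhp6ab against 18.8 CPM at 3833 bp in WT. The median distance between matched midpoints was 10 bp for the members and 11 bp for all protein-coding genes.

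**Figure D5:**
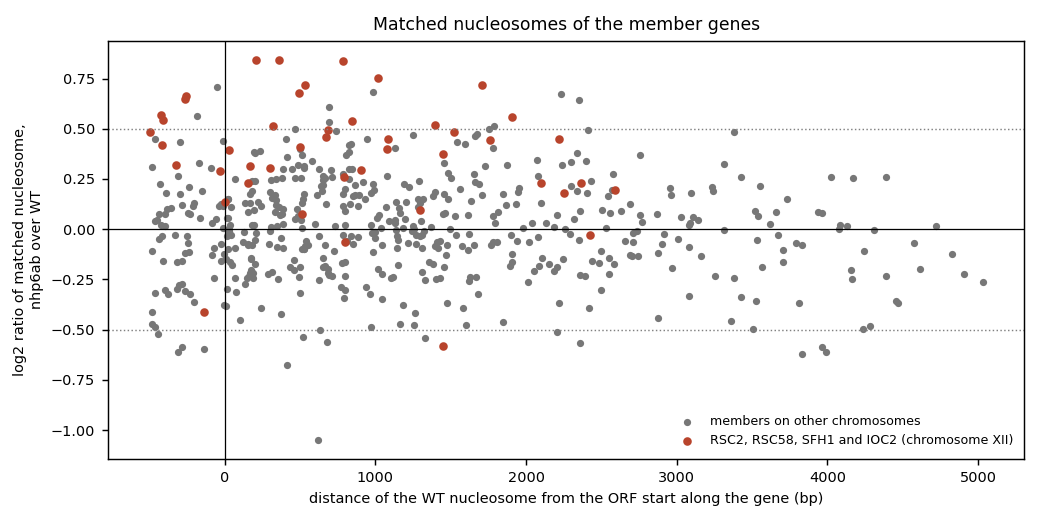
Log2 ratio of each of the 557 matched nucleosomes, nhp6ab over WT, by the distance of the WT nucleosome from the ORF start in bp. Red points are the genes on chromosome XII and grey points the other 38 genes, dotted lines mark 0.5; 15 of the 24 points above 0.5 are red, and the lowest point belongs to STH1.

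Other subunits and chaperones were summed the same way as a wider view of the pathway. These 44 genes, such as the further subunits of INO80 and SWR1 the chaperones Nap1 and Rtt106 and the elongation factor Spt5, had a median log2 ratio of −0.01. By the rule above 4 were higher and 4 lower, near the backgrounds of 9.46% and 12.5%. The lower were IES4 at −0.83 and IES6 at −0.58, both of INO80, NPL6 of RSC at −0.36 and SWC4 of SWR1 at −0.34. IES4 had 923 counts over 2 nucleosomes in nhp6ab and 2150 over 5 in WT, and 0.49 by the mean. IES6 had 1628 counts in nhp6ab and 3176 in WT over 6 nucleosomes in each, so that its sum and its mean were equal. The 4 higher, BDF1 at 0.48, RAD5 at 0.44, ARP6 and SWC7 at 0.35 each, all lie on chromosome XII, as do SFH1 and RSC58.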

How the data were processed

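H4K16ac ChIP-seq libraries, 2 labelled nhp6ab and 2 labelled WT, are represented by 1 deposited table per genotype. Per the file headers the authors gave whole read counts per nucleosome, not normalized, with chromosome, start and end coordinates in bp. Bowtie, FastQC and build R64 are named in the submitters' processing notes. How nucleosomes were called, reads filtered and replicates merged is not given in the sources used here. Listed nucleosomes span 120 to 160 bp, and 39.1% in nhp6ab and 41.1% in WT overlap the next, so a read may count more than once and counting intervals are then too narrow. Without molecular identifiers, PCR copies cannot be told from separate molecules, and intervals cover counting error only.

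Gene positions came from an R64 gene table of RefSeq, and strand came from the W or C in the systematic name. Counts were scaled to the table total, which hides any change common to all regions. The log2 ratio (nhp6ab over WT) of summed counts has an exact conditional binomial 95% interval. Genes or regions needed 100 counts in the tables together and a count above 0 in each to be measured. Calls took an absolute log2 ratio of 0.3. Matched nucleosomes were mutual nearest neighbours by midpoint within 50 bp with at least 10 counts over both tables. Scripts used Python 3.11.15, pandas 2.3.3, numpy 2.4.6 and scipy 1.17.1 and were tested on simulated tables with known ratios. The simulated tables shared the WT nucleosome list and had independent counts. They could not check the effect of differing lists, of reads counted more than once or of replicate spread. The members, gene lists and call limits were chosen with earlier results of these data known. Named with full values were the catalytic genes, SPT6 and ASF1, the members past the limit and the highest and lowest of each complex; other members and single nucleosomes were chosen for description after their values were seen. No nucleotide sequence is shown.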

Additional observations from a re-analysis of the deposited data

How the results depend on the processing

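No paired analysis was possible because each table holds a single column for both replicates, and for the same reason no replicate could be left out. With the mean count per listed nucleosome in place of the sum, the median of the members moved to 0.044 over the window and 0.065 over the ORF, and 1 member instead of 7 was lower over the window and 1 instead of 6 over the ORF, where 5.41% of all genes were in each, down from 12.5% and 12%. The mean also turned the direction of HIR1 over the window (0.075), of HIR3 (0.079) and RLF2 (0.0018) over the ORF, and upstream of RSC3 (0.28), RSC4 (−0.33), HTL1 (0.24), SNF2 (0.18) and IOC2 (0.54). Scaling to the median count gave medians of −0.14 over the window and −0.099 over the ORF, with 1 member higher and 11 lower in each, against 7.17% and 17.35% of all genes over the window and 9.49% and 16.38% over the ORF. This scaling moved the median of all genes to −0.090, so the members' distance from it was unchanged at −0.046. Scaling without chromosome XII gave 3 lower over the window (10.22% of all genes). Centring on the chromosome gave 1 higher (HIR2, 6.16% of all genes) and 4 lower (IOC2 newly, 10.89%) over the window, 7 lower upstream (26.93%) and 1 higher over the ORF (8.08%), and turned RSC58 to −0.033. Assignment by overlap gave 1 higher over the window (8.59% of all genes) and 3 upstream (12.68%), and turned RSC4 (−0.20) and HPC2 (0.25) upstream. Without nucleosomes that overlap a neighbour by at least 20 bp, 9 members were higher and 13 lower over both the window and the ORF, against 23.2% and 33.3% of all genes over the window and 27.24% and 31.41% over the ORF. SNF6 (1.62), ITC1 (0.080) and SWR1 (0.44) then turned over the window, SNF6 (1.004) and HIR3 (0.29) over the ORF, and RSC58 (−0.53), HTL1 (1.49), SNF11 (0.22) and IOC2 (0.43) upstream. At a limit of 0.5, 0 were higher and 2 lower over the window and over the ORF, and 3 higher and 6 lower upstream. At a limit of 1 the counts were 0 everywhere except 2 lower upstream. With 300 bp upstream 1 member was higher over the window (10.11% of all genes), and RSC3 (0.026) and HTL1 (0.083) turned upstream. With 1000 bp, 4 were lower over the window (10.39% of all genes) and 8 upstream (24.56%), and IOC2 (0.27) and IOC4 (0.085) turned upstream. Placing pairs by shared midpoint, chosen after the data were seen, turned RSC4 (−0.30) and HPC2 (0.54) upstream. SFH1 was above 0 over the window under every setting tried for single genes, but not called when centred (0.12), and STH1, SNF11, SPT6 and HIR1, but for HIR1 by the mean, were below 0, SNF11 at −0.10 without overlapping nucleosomes. The cause was not tested. With 95% counting intervals alone, no limit for the spread between replicates can be given.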
